A study of Mus musculus with 2 samples.

Results

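Secreted and membrane proteins enter the endoplasmic reticulum (ER) through a common set of complexes, and the genes of these complexes were followed here in pro-B cells with and without a deleted Setdb1 gene. The set has 34 named genes, listed by function, with earlier results of these data known. A gene was represented by the transcript of highest mean RPKM (reads per kilobase of transcript, scaled to the library's depth). Of the 34 genes, 33 had a row in the deposited table, which holds 36980 gene symbols in all, and 32 reached 1 RPKM in either library and are called measured. Spcs1 was matched to no row, so its expression was not analysed here, and Srp54a did not reach 1 RPKM.

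RNA came from 2 cultures of mouse bone marrow pro-B cells, the B cell precursors that rearrange the immunoglobulin heavy chain genes. One culture was Setdb1 Δ/Δ, with the gene deleted, and the other was Setdb1 C/C, with undeleted alleles; SETDB1 methylates lysine 9 of histone H3. Both cultures were bcl2-tg, that is, they carried a transgene of the survival gene bcl2, and both had been sorted by flow cytometry and cultured to day 4 in IL-7 (5 ng/µl). The promoter or Cre that drives the deletion, the deleted exons, and the age, sex and strain of the animals are all not given in the sources at hand. Each genotype had 1 library. Every difference below therefore has no replicate check, no test was possible, and intervals cover counting error only.

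The libraries held 193.3 M reads in Δ/Δ and 170.6 M reads in C/C (M, mega), as recovered from the RPKM steps. Setdb1 itself, as a whole transcript, measured 12.6 RPKM in Δ/Δ and 17.0 RPKM in C/C. Exons outside the deletion can still give reads, so the value does not show how far the gene was deleted. Xist, the X inactivation RNA, measured 23.7 RPKM in Δ/Δ and 0.0940 RPKM in C/C, so genotype and sex of the source animal cannot be told apart. Of 10 pro-B markers, all 10 were measured. By the 2-fold rule given below, 0 were higher and 4 lower in Δ/Δ, against 6.28% and 6.66% of all measured genes. Vpreb1 measured 893 RPKM in Δ/Δ and 745 RPKM in C/C, and Cd79b 651 RPKM in Δ/Δ and 1372 RPKM in C/C.

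As background, a ribosome that makes a secretory protein is caught by the signal recognition particle (SRP), which binds the emerging signal sequence and docks at the SRP receptor of the ER membrane. The chain then passes through the Sec61 channel, assisted by the TRAP and TRAM proteins, signal peptidase removes the signal sequence, and oligosaccharyltransferase (OST) attaches a preformed glycan to asparagine residues. These genes are known to be induced when B cells turn into antibody-secreting plasma cells, and many are known targets of XBP1 and ATF6, transcription factors of the unfolded protein response.

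Most of the translocon, signal peptidase and OST genes measured more RNA in Δ/Δ than in C/C. The size rule used log2((Δ/Δ + 0.5) / (C/C + 0.5)) of RPKM. Genes at 1 or above on this scale are called higher in Δ/Δ and genes at -1 or below are called lower, which is a 2-fold rule that understates the change of genes near 0. By this rule 9 of the 32 measured members (28.1%) were higher, against 6.28% of all 12556 measured genes, and 0 were lower, against 6.66% of all. The log2 ratio was above 0 for 29 members (90.6%), against 42.2% of all measured genes. The median log2 ratio was 0.74 over the members and -0.09 over all measured genes, whose middle 50% ran from -0.42 to 0.26. At a 1.5-fold rule 20 members were higher, against 12.6% of all measured genes. These counts and medians describe 2 libraries. In bulk RNA, fewer cells of a type and less RNA per cell cannot be told apart.

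**Figure D1:**
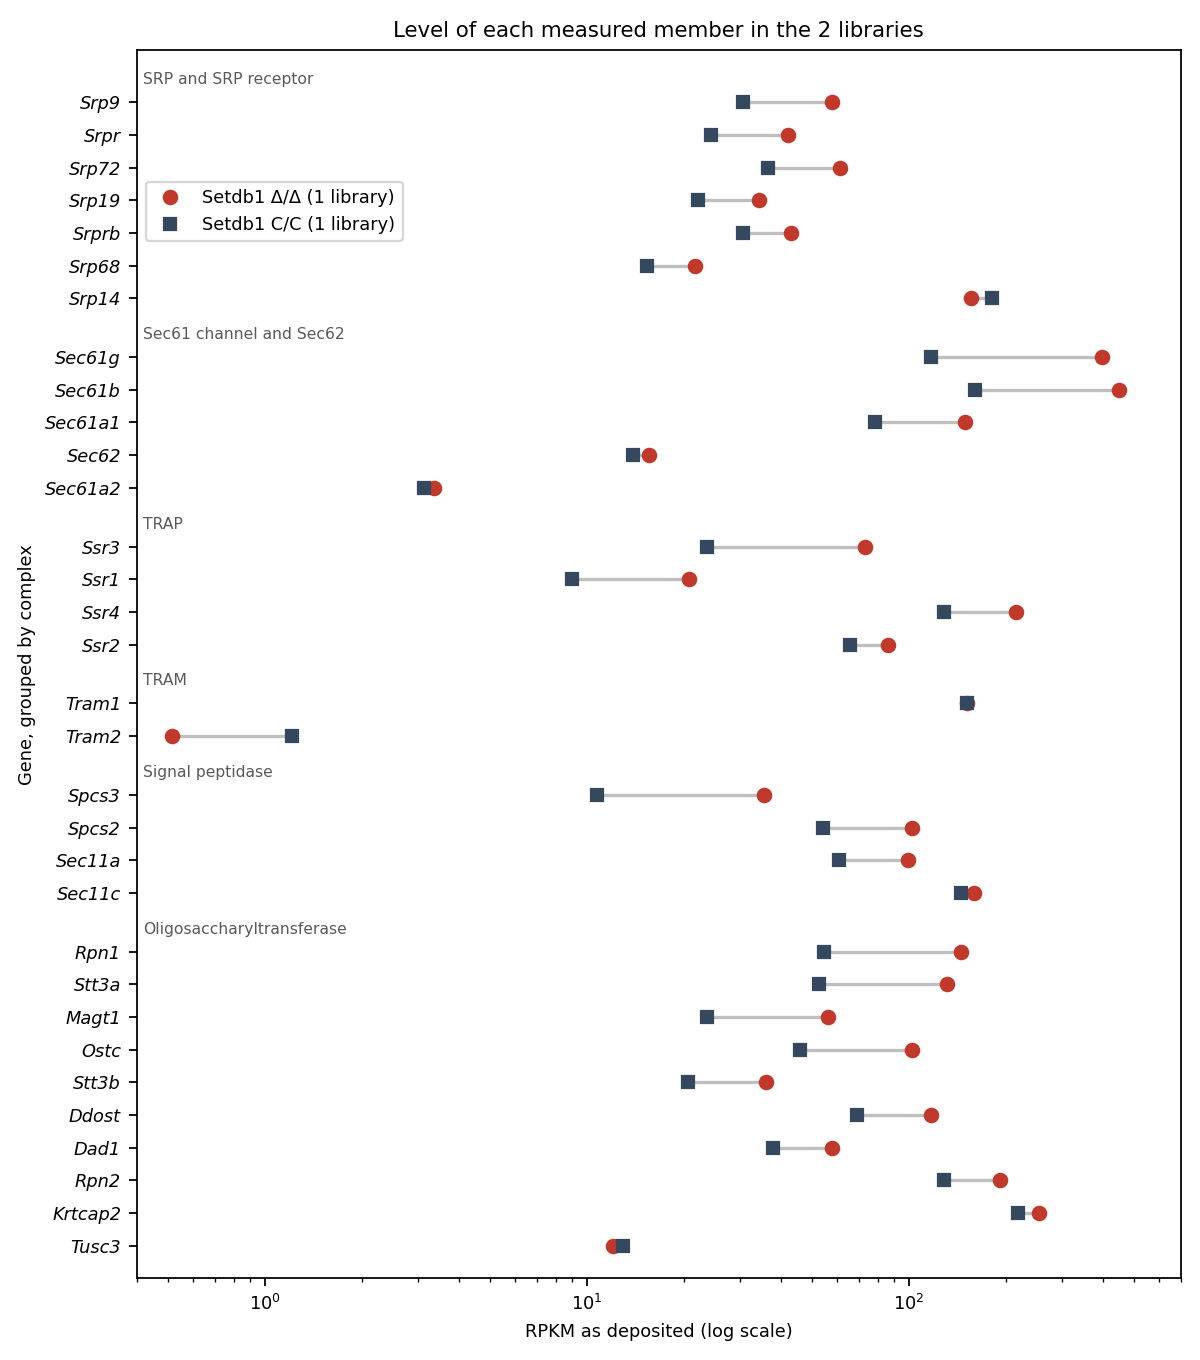
RPKM of each measured member on a log axis, with 1 point per library (circles, Setdb1 Δ/Δ; squares, Setdb1 C/C) and genes grouped by complex and ordered by log2 ratio. The circle lies right of the square for 29 of 32 genes, with the widest gaps at Sec61g, Spcs3 and Ssr3.

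**Figure D2:**
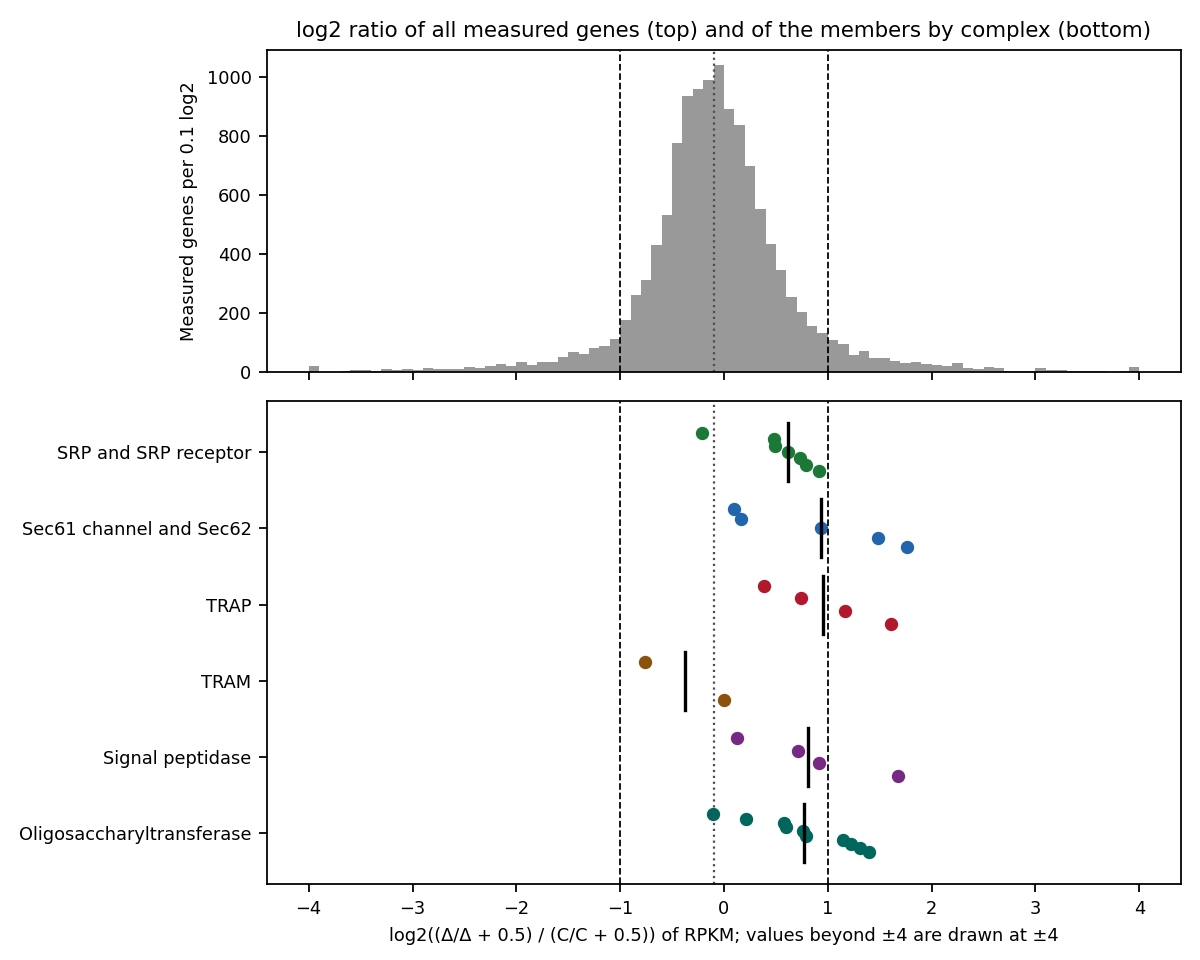
log2 ratio of Δ/Δ over C/C for all 12556 measured genes (top, histogram in steps of 0.1) and for the members by complex (bottom, 1 point per gene, vertical bar at the median); dashed lines mark the 2-fold rule and the dotted line the median of all measured genes, -0.09. The medians of 5 complexes lie between 0.62 and 0.95. That of TRAM, -0.38, is the midpoint of 2 genes, Tram1 at 0.004 and Tram2 at -0.76. Tram2 measured 0.514 RPKM in Δ/Δ and 1.21 RPKM in C/C.

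The small subunits of the Sec61 channel were both more than 2-fold higher, and Sec61g had the largest log2 ratio of the members. Sec61g, the gamma subunit, which clamps the channel from the side of the membrane, measured 399 RPKM in Δ/Δ and 117 RPKM in C/C, a ratio of 3.40 (95% counting interval 3.28 to 3.51) and a log2 ratio of 1.76. Sec61b, the beta subunit at the channel's periphery, measured 449 RPKM in Δ/Δ and 160.3 RPKM in C/C, a ratio of 2.80 (interval 2.72 to 2.88). Both small subunits were called higher, and in Δ/Δ they had the highest levels per length of all members. The pore-forming alpha subunit Sec61a1 measured 149.95 RPKM in Δ/Δ and 78.3 RPKM in C/C (log2 ratio 0.93), short of the rule. Its paralogue Sec61a2 measured 3.36 RPKM in Δ/Δ and 3.12 RPKM in C/C, and its counting interval of the ratio, 0.868 to 1.33, includes equality. Sec62, a membrane protein that helps short and post-translationally delivered chains into the channel, measured 15.6 RPKM in Δ/Δ and 13.9 RPKM in C/C, with 12.8% of its bases shared with exons of the antisense gene 4933429H19Rik. The 3 subunits that form the main channel thus differed by unequal amounts, the smallest at Sec61a1.

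The representative transcript of Sec61g lies on chromosome 11, 16501651 to 16508069 (GRCm38, minus strand), and that of Sec61b on chromosome 4, 47474764 to 47483128. Both are protein-coding. The Sec61a1 representative (chromosome 6, 88515364 to 88518791) is a short non-coding transcript of 380 bases, and the protein-coding transcript of the gene had a log2 ratio of 0.83.

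TRAP, the translocon-associated protein complex, binds beside the channel and aids chains with weak signal sequences. Ssr3, its gamma subunit, measured 73.2 RPKM in Δ/Δ and 23.6 RPKM in C/C, a ratio of 3.10 (interval 3.01 to 3.19). Ssr1, the alpha subunit, measured 20.8 RPKM in Δ/Δ and 9.02 RPKM in C/C, a ratio of 2.31 (interval 2.24 to 2.37). These were the called subunits, at chromosome 3, 65379655 to 65392623, and chromosome 13, 37971401 to 37994217. Ssr4, the delta subunit, measured 215 RPKM in Δ/Δ and 129 RPKM in C/C (log2 ratio 0.74), and Ssr2, the beta subunit, 86.0 RPKM in Δ/Δ and 65.5 RPKM in C/C (log2 ratio 0.39). All 4 subunits were thus above 0, with log2 ratios spread from 0.39 to 1.61.

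The TRAM genes had log2 ratios near or below 0. Tram1, which encodes the translocating chain-associated membrane protein, measured 152.2 RPKM in Δ/Δ and 151.7 RPKM in C/C, a ratio of 1.003 with a counting interval of 0.989 to 1.02. Tram2, its paralogue, measured 0.514 RPKM in Δ/Δ and 1.21 RPKM in C/C (log2 ratio -0.76), and it passed the filter of 1 RPKM through C/C alone. With a pseudocount of 0.1 RPKM its log2 ratio was -1.10, past the rule. Tram1 was among the most abundant members in C/C, below Srp14, Sec61b and Krtcap2.

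Signal peptidase cuts the signal sequence from the entering chain. Spcs3, an accessory subunit needed for the enzyme's activity in yeast, measured 35.5 RPKM in Δ/Δ and 10.8 RPKM in C/C, a ratio of 3.29 (interval 3.16 to 3.42), and was the called member of this complex (chromosome 8, 54520433 to 54529998). Spcs2, another accessory subunit, measured 103 RPKM in Δ/Δ and 54.1 RPKM in C/C (log2 ratio 0.92). The catalytic subunits differed less. Sec11a measured 99.4 RPKM in Δ/Δ and 60.6 RPKM in C/C (log2 ratio 0.71), and Sec11c 159.5 RPKM in Δ/Δ and 146 RPKM in C/C (log2 ratio 0.13). The Sec11c value depends on the transcript, since its listed transcripts ran from 0.13 to 1.26 on the log2 scale, and the other protein-coding one had 0.61.

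OST had 4 of 10 measured members higher (40%, against 6.28% of all measured genes) and 0 lower (against 6.66%). Its median log2 ratio was 0.78. Rpn1, a ribophorin subunit present in both forms of the enzyme, measured 145 RPKM in Δ/Δ and 54.7 RPKM in C/C, a ratio of 2.65 (interval 2.60 to 2.70; chromosome 6, 88084482 to 88105304). Stt3a, the catalytic subunit that works at the translocon, measured 132 RPKM in Δ/Δ and 52.6 RPKM in C/C, a ratio of 2.50 (interval 2.39 to 2.61; chromosome 9, 36752330 to 36767619). Ostc, which links the STT3A enzyme to the translocon, measured 102 RPKM in Δ/Δ and 46.0 RPKM in C/C, a ratio of 2.22 (interval 2.14 to 2.30; chromosome 3, 130695912 to 130709444). All 3 genes were thus more than 2-fold higher, and the 7 listed Stt3a transcripts had log2 ratios from 1.11 to 1.75. The Stt3a representative is annotated as a target of nonsense-mediated decay, and the longest protein-coding transcript had 1.24.

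The fourth was Magt1, an oxidoreductase subunit of the STT3B enzyme, with 56.1 RPKM in Δ/Δ and 23.7 RPKM in C/C, a ratio of 2.37 (interval 2.25 to 2.49; X chromosome, 105976619 to 106011780). Its paralogue Tusc3 measured 12.0 RPKM in Δ/Δ and 12.9 RPKM in C/C (log2 ratio -0.10). Stt3b, the catalytic subunit that also glycosylates chains after their release from the ribosome, measured 35.9 RPKM in Δ/Δ and 20.6 RPKM in C/C (log2 ratio 0.79). The called OST genes thus include parts of both enzyme forms.

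The remaining OST subunits lay within the rule. Ddost, a subunit of the enzyme's shared core, measured 117 RPKM in Δ/Δ and 69.0 RPKM in C/C (log2 ratio 0.76). Dad1, a small core subunit first known as a defender against cell death, measured 57.9 RPKM in Δ/Δ and 38.0 RPKM in C/C (log2 ratio 0.60). Rpn2, the other ribophorin, measured 193 RPKM in Δ/Δ and 128 RPKM in C/C (log2 ratio 0.58). Krtcap2, a small subunit of the STT3A enzyme, had the highest level of all members in C/C, at 254 RPKM in Δ/Δ and 219 RPKM in C/C (log2 ratio 0.22). Its partner Ostc, of the same enzyme form, was more than 2-fold higher, so the small subunits did not differ alike. Of OST subunits outside the 34, chosen after their values were seen, Tmem258 measured 208 RPKM in Δ/Δ and 165 RPKM in C/C, and Ost4 measured 124.5 RPKM in Δ/Δ and 103 RPKM in C/C.

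SRP and its receptor had 0 of 7 measured members called in either direction, against 6.28% higher and 6.66% lower of all measured genes. For 7 members, 0 calls are close to those shares. The median log2 ratio of SRP and its receptor was 0.62. Srp9, which pairs with SRP14 on the Alu domain of the particle's RNA to slow translation, measured 57.9 RPKM in Δ/Δ and 30.5 RPKM in C/C (log2 ratio 0.91). Srp14, its partner, measured 156 RPKM in Δ/Δ and 181 RPKM in C/C (log2 ratio -0.21). The partners of this pair thus lay on opposite sides of 0, and all 4 listed Srp14 transcripts were below 0 while the Srp9 transcripts were at 0.86 and 0.91. Srp72, a scaffold protein of the particle, measured 61.1 RPKM in Δ/Δ and 36.6 RPKM in C/C (log2 ratio 0.73), and Srp68, which binds it, 21.7 RPKM in Δ/Δ and 15.4 RPKM in C/C (log2 ratio 0.48). Srp19, which helps SRP54 onto the RNA, measured 34.3 RPKM in Δ/Δ and 22.2 RPKM in C/C (log2 ratio 0.62). The receptor genes Srpr and Srprb had log2 ratios of 0.79 and 0.50, with Srpr at 42.3 RPKM in Δ/Δ and 24.3 RPKM in C/C and Srprb at 43.2 RPKM in Δ/Δ and 30.5 RPKM in C/C. The Srprb representative shares 29.0% of its bases with exons of Gm20425 on the same strand, so its reads cannot be assigned to Srprb alone.

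SRP54 binds the signal sequence, and its gene has 3 near-identical mouse copies among which reads can be split. Srp54a had 1 read in Δ/Δ and 0 in C/C, and this copy alone does not give the level of the protein's RNA. Whether its value comes from how reads were placed or from a low level of this copy was not tested. Its copies, chosen after their values were seen, measured more. Srp54b had 11.7 RPKM in Δ/Δ and 10.04 RPKM in C/C, and Srp54c had 8.43 RPKM in Δ/Δ and 3.97 RPKM in C/C (log2 ratio 0.998). The RNA of the particle is encoded by Rn7s1 and Rn7s2, also near-identical and also chosen after their values were seen. Rn7s1 measured 282 RPKM in Δ/Δ and 68.4 RPKM in C/C, and Rn7s2 143 RPKM in Δ/Δ and 89.0 RPKM in C/C. Reads can be split between these copies too.

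Paralogues that take the same place in a complex differed unequally. In each of the 5 pairs the level of the first gene over that of the second was larger in Δ/Δ. Magt1 over Tusc3 was 4.66 in Δ/Δ and 1.83 in C/C, a difference of 1.33 between their log2 ratios and the largest of the 5. Sec61a1 over Sec61a2 was 44.6 in Δ/Δ and 25.1 in C/C, and with protein-coding transcripts only it was 40.8 in Δ/Δ and 27.1 in C/C. Stt3a over Stt3b was 3.66 in Δ/Δ and 2.55 in C/C, and Sec11a over Sec11c was 0.623 in Δ/Δ and 0.416 in C/C. Tram1 over Tram2 was 296 in Δ/Δ and 125.1 in C/C, where the level of Tram2 alone differed. With protein-coding transcripts only, Stt3a over Stt3b was 2.44 in Δ/Δ and 1.96 in C/C, and Sec11a over Sec11c was 0.453 in Δ/Δ and 0.312 in C/C. The Sec11 pair depends most on the transcript: the difference of its log2 ratios was 0.58 as given, 0.19 when all transcripts were summed and 0.14 with the longest transcript. The order of the pairs' genes was set after their values were known, so the common direction is a description.

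**Figure D3:**
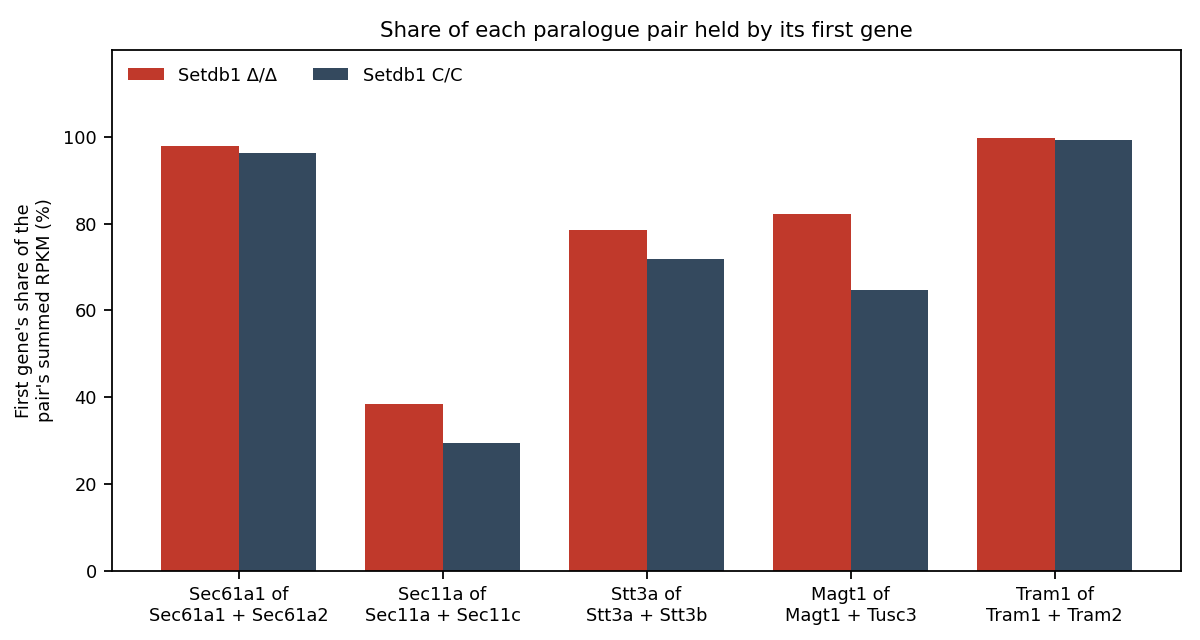
Share of the summed RPKM of 5 paralogue pairs held by the first gene named, in percent (left bars, Setdb1 Δ/Δ; right bars, Setdb1 C/C; 1 library each, no error bars). Magt1 held 82.3% of its pair in Δ/Δ and 64.6% in C/C, and Sec11a held 38.4% in Δ/Δ and 29.4% in C/C, a gap that narrows with other transcripts of the pair.

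The 9 higher members stayed past the rule under all 11 other settings in which they were present. The settings varied pseudocount, filter, scaling, transcript choice and X chromosome genes. Of these, the filters and the removal of X chromosome genes leave a gene's log2 ratio unchanged, and both scalings raised it. Transcript choice could not alter Ssr1, Spcs3, Rpn1 and Ostc, each with 1 listed transcript. A Sec61g transcript with 188 RPKM in Δ/Δ and 93.7 RPKM in C/C lay just short of the rule. Scaling added 3 calls. Sec61a1, Spcs2 and Srp9, at 0.93, 0.92 and 0.91, were at 1.03, 1.01 and 1.01 after centring on the median of all measured genes. The lowest called values were Ostc at 1.14 and Ssr1 at 1.16.

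**Figure D4:**
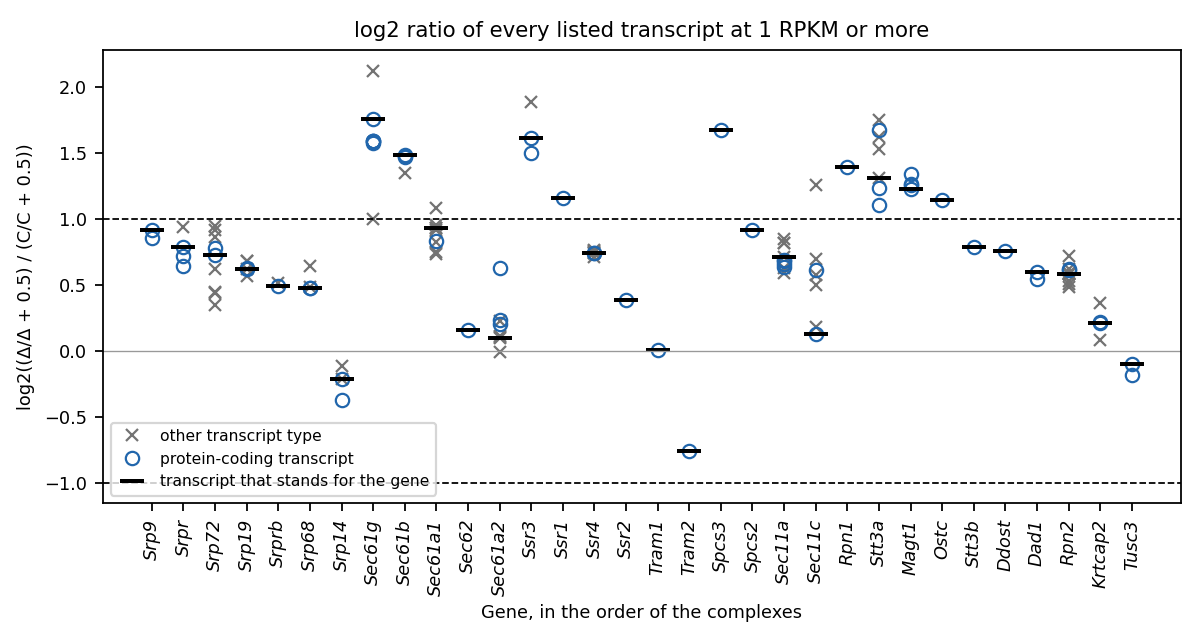
log2 ratio of every listed transcript that reached 1 RPKM in either library, per gene (circles, protein-coding; crosses, other types; bars, the transcript that stands for the gene); dashed lines mark the 2-fold rule. All listed Stt3a, Magt1, Sec61b and Ssr3 transcripts lie above the upper line, and those of Sec11c spread from 0.13 to 1.26.

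Magt1 and Ssr4 lie on the X chromosome, where Xist differed between the libraries. Of 379 measured X chromosome genes 18 were higher and 18 lower, against 6.28% higher and 6.66% lower of all measured genes. The X chromosome genes had a median log2 ratio of -0.03. Without X chromosome genes 8 of 30 members were higher, against 6.32% of measured genes, and the members' median was 0.72. The part of the Xist difference, or of the animals' sex, in the values of Magt1 and Ssr4 was not tested.

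Promoters were compared because many members moved together and because XBP1 and ATF6 have known target motifs. RefSeq promoters (GRCm38.p6, from 250 bases before to 50 after a start site) were found for 25 of the 34 members, 27 in all. The motifs, searched on both strands, were the ER stress response element ERSE (CCAAT, any 9 bases, CCACG), ERSE-II (ATTGG, any 1 base, CCACG), the core of the unfolded protein response element (TGACGTGG) and the letters CCACG. The last are contained in each of the others, on either strand. ERSE was found in 0 of the 25 members and in 0.137% of all 27025 genes, and the core TGACGTGG in 0 members and 0.714% of genes. ERSE-II was found in 1 member, Krtcap2, and in 0.0444% of genes. CCACG was found in 16 members (64.0%) and in 35.5% of all 27025 genes, which include genes not measured here. The share over measured genes alone was not computed. It was present in 4 of the 7 higher members with a promoter and in 11 of the 16 measured members not called. The promoter of Hspa5, the ER chaperone BiP, held ERSE. The promoters of 3 members show the range, 5′ to 3′, with the motif letters in capitals: Rpn1 (called higher, CCACG on each strand; chr6:88084223-88084522, plus strand), Sec61g (called higher, no motif; chr11:16508435-16508734, minus strand) and Krtcap2 (not called, ERSE-II starting 17 bases after the start site; chr3:89246223-89246522, plus strand).
Rpn1: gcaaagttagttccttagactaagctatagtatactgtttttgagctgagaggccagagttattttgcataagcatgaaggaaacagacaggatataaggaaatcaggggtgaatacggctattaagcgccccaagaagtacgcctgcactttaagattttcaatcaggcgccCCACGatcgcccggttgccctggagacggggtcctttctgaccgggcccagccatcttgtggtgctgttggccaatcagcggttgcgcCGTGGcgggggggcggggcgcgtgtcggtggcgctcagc
Sec61g: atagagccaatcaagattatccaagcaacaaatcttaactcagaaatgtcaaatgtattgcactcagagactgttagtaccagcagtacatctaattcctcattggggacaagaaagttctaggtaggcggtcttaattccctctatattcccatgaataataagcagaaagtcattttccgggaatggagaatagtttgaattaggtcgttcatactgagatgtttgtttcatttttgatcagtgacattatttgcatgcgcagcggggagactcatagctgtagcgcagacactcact
Krtcap2: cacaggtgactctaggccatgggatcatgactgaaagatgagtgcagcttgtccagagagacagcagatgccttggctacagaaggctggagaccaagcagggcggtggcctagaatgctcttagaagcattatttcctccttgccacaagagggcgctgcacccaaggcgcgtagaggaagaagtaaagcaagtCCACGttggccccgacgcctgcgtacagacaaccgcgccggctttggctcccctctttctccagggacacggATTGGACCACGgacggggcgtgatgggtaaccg
Of these, Krtcap2, the member with a full motif, had a log2 ratio of 0.22, and Sec61g, with none in this window, had 1.76. Any link between motifs and log2 ratios was not tested. The measured Sec61g transcript starts 415 bases downstream of the start site of that window, so its own start is not covered. Krtcap2 has another window, shifted by 35 bases, which holds no ERSE-II. The measured Krtcap2 transcript starts upstream of the start site of the printed window, so the ERSE-II letters lie within that transcript's span. A match is a run of letters and not a shown binding site, and a missing match concerns this window only.

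Neighbouring pathways of ER entry and glycosylation were set beside the members. Among 17 measured other translocon partners 5 were higher (29.4%, against 6.28% of all measured genes) and 0 lower, with a median log2 ratio of 0.48. All 5 are chaperones, their helpers or an ER shaping protein. Hspa5, which seals the channel and pulls chains inward, measured 582 RPKM in Δ/Δ and 134 RPKM in C/C, and Hyou1, its exchange factor, 198 RPKM in Δ/Δ and 47.1 RPKM in C/C. The J-domain co-chaperone genes Dnajb9 (11.4 RPKM in Δ/Δ and 3.17 RPKM in C/C) and Dnajc3 (42.9 RPKM in Δ/Δ and 15.2 RPKM in C/C) were higher, as was Ckap4 (14.8 RPKM in Δ/Δ and 5.40 RPKM in C/C), which shapes ER sheets. Sec63, the partner of Sec62 at the channel, named after its value was seen, has no settled direction, since its 5 measured transcripts ran from -0.40 to 0.92 on the log2 scale.

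Glycan trimming and the calnexin cycle act after OST and had 3 of 11 measured members higher (27.3%, against the same 6.28%) and 0 lower, with a median of 0.28. Those were the lectin chaperones Canx (464 RPKM in Δ/Δ and 165 RPKM in C/C) and Calr (806 RPKM in Δ/Δ and 263 RPKM in C/C) and the oxidoreductase Pdia3 (71.9 RPKM in Δ/Δ and 20.5 RPKM in C/C). Assembly of the dolichol-linked glycan, the donor that OST consumes, had 0 of 23 measured members called in either direction and a median of 0.04. Its largest values were Nus1, a subunit of the dolichol-making prenyltransferase, at 7.52 RPKM in Δ/Δ and 3.76 RPKM in C/C (log2 ratio 0.91), and the mannosyltransferase Alg2, at 9.89 RPKM in Δ/Δ and 5.49 RPKM in C/C (log2 ratio 0.80). The glycan donor genes thus lay near the median of all measured genes while OST lay above it.

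Other routes into the membrane were small lists with 0 or 1 call each, to be read beside the 6.28% higher and 6.66% lower of all measured genes. The ER membrane complex, an insertase for multipass and tail-anchored proteins, had 0 of 10 measured members called and a median of 0.04, from Emc10 at -0.65 to Emc2 at 0.80. The multipass translocon had 0 of 7 called and a median of -0.13, with Rab5if at 0.58 and Nomo1 at 0.52. The tail anchor pathway had 0 of 7 called and a median of -0.05, with Bag6 at -0.29 and Wrb, the insertase subunit GET1, at 0.26. The nascent chain complex, which binds chains at the ribosome before SRP, had 0 of 4 called, with Nacad at -0.68 and Btf3 at 0.19. Among GPI anchor attachment genes 1 of 7 was higher, Pigt, a subunit of the transamidase, at 46.3 RPKM in Δ/Δ and 21.3 RPKM in C/C; its transcripts ran from 0.97 to 1.10, and the list's median was -0.06. All values in this paragraph other than RPKM are log2 ratios, and none of these differences between lists was tested.

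**Figure D5:**
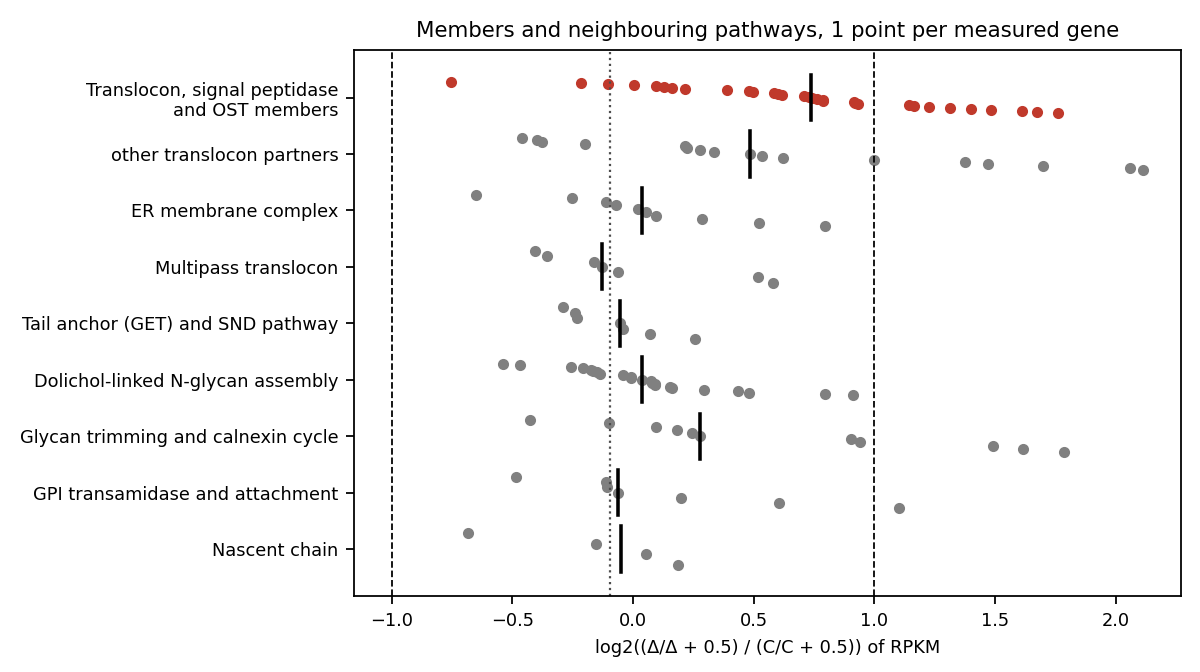
log2 ratio of Δ/Δ over C/C, 1 point per measured gene, for the members (top row) and 8 neighbouring pathways; vertical bars are medians, dashed lines the 2-fold rule and the dotted line the median of all measured genes. The members' median is 0.74, and the pathways' medians run from -0.13 to 0.48.

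Other cell types that carry much translocon RNA were checked by their markers. Of 10 plasma cell markers 7 were measured, with 3 higher (42.9%, against 6.28% of all measured genes) and 0 lower (against 6.66%). The summed level of the 7 was 780.4 RPKM in Δ/Δ and 469 RPKM in C/C. Xbp1 (183 RPKM in Δ/Δ and 58.5 RPKM in C/C) and Mzb1 (413 RPKM in Δ/Δ and 189.5 RPKM in C/C), which also belong to ER protein folding, had the highest levels in Δ/Δ. Ell2, a transcription elongation factor, was the other called marker (15.6 RPKM in Δ/Δ and 4.28 RPKM in C/C), and Fndc3b measured 3.50 RPKM in Δ/Δ and 1.58 RPKM in C/C. Irf4 measured 59.1 RPKM in Δ/Δ and 105.7 RPKM in C/C (log2 ratio -0.83). Slamf7 measured 98.4 RPKM in Δ/Δ and 97.3 RPKM in C/C (log2 ratio 0.02). The listed markers Prdm1 (0.224 RPKM in Δ/Δ and 0.558 RPKM in C/C), Tnfrsf17 (0.0130 RPKM in Δ/Δ and 0.0290 RPKM in C/C) and Jchain (0.705 RPKM in Δ/Δ and 0.661 RPKM in C/C) were below 1 RPKM in both libraries. Sdc1 measured 8.02 RPKM in Δ/Δ and 12.3 RPKM in C/C. The part of plasma cells in the members' values was not tested.

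Myeloid markers were higher in Δ/Δ alongside the members. Of 10, 7 were measured, with 5 higher (71.4%, against 6.28% of all measured genes) and 0 lower (against 6.66%). S100a8 and Fcer1g passed the filter of 1 RPKM through Δ/Δ alone. The summed level of the 7 was 243 RPKM in Δ/Δ and 26.3 RPKM in C/C. The highest levels were those of Lyz2 (119.99 RPKM in Δ/Δ and 9.01 RPKM in C/C) and S100a9 (56.2 RPKM in Δ/Δ and 5.44 RPKM in C/C). The granule genes Mpo and Elane were listed at 0 in C/C and measured 0.434 and 0.214 RPKM in Δ/Δ. Dendritic markers had 4 of 4 measured (of 6) higher, against the same 6.28%. All 4 passed the filter of 1 RPKM through Δ/Δ alone, so the filter itself favoured this count. Their sums were 11.8 RPKM in Δ/Δ and 1.19 RPKM in C/C. Siglech and Clec10a had the highest levels, 5.64 and 2.12 RPKM in Δ/Δ against 0.850 and 0.173 RPKM in C/C. Erythroid and platelet markers had 4 of 4 measured (of 6) higher, against the same 6.28%, and among them Ppbp and Pf4 passed the filter through Δ/Δ alone. The sums were 57.9 RPKM in Δ/Δ and 5.58 RPKM in C/C, mostly globin (Hbb-bs and Hba-a1, 34.5 and 19.0 RPKM in Δ/Δ against 3.60 and 1.84 RPKM in C/C). Mast cell and basophil markers had 2 of 6 measured, Prss34 (1.16 RPKM in Δ/Δ, listed at 0 in C/C) and Kit (2.24 RPKM in Δ/Δ and 4.42 RPKM in C/C), with sums of 3.40 RPKM in Δ/Δ and 4.42 RPKM in C/C. The summed level of the 32 measured members was 3483 RPKM in Δ/Δ and 2029 RPKM in C/C, a ratio of 1.72. The part of these cell types in the members' values was not tested.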

How the data were processed

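The deposited table gives 1 RPKM value per transcript (93615) and library, rounded by the authors to 3 decimals. Tools named in the submitters' processing notes are TopHat2 2.0.9 and bedtools, and the builds are mm9 and mm10; how reads were counted, the annotation release and any use of strand are not given in the sources used. The columns headed Del and Wt were read as Δ/Δ and C/C. Identifiers were matched to GENCODE M21 (GRCm38) for 95.7% of transcripts, and coordinates come from that annotation. Depth was recovered as the step that made RPKM times length whole: of low values, 95.6% in Δ/Δ and 96.2% in C/C lay within 0.1 of a whole read. Because transcripts with 2 reads outnumbered those with 1, intervals (exact, for the ratio of 2 Poisson rates) took 2 reads as 1 fragment. Overlapping transcripts share reads, and reads of a gene and an antisense partner cannot be told apart. RNA had been depleted of ribosomal RNA, per the labels' protocols.

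The members and lists were chosen with earlier results of these data known. Named genes are Setdb1, Hspa5, all members, called or otherwise the 2 most different genes of each pathway list, and the 2 most abundant genes of each marker list. Others are marked, apart from Xist, the plasma cell markers (all named) and further myeloid and platelet markers. Calculations used Python 3.11.15, pandas 2.3.3 and scipy 1.17.1, and were tested on simulated data. Alternatives varied the pseudocount, filter, scaling, transcript, size rule and X chromosome genes.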

Additional observations from a re-analysis of the deposited data

How the results depend on the processing

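With 1 library per genotype, replicate spread is unknown, and counting error is widest for Sec61a2 among the measured members. No paired analysis was possible because each group has 1 library and no test. The 9 members called higher became 20 at 1.5-fold and 0 at 4-fold. The 0 members called lower became 1 (Tram2) at 1.5-fold and with a pseudocount of 0.1 RPKM. The members' median of 0.74 was 0.83 after centring and 0.84 with a common RPKM sum without the 20 most abundant transcripts. These scalings moved the median of all measured genes, -0.09, to 0.00 and 0.003 and made 12 members higher, against 7.22% and 7.29% of genes; without a filter that median was 0.00. Over all genes, 788 higher and 836 lower became 1583 and 2101 at 1.5-fold, 220 and 234 at 4-fold, and 452 and 510 with a filter of 5 RPKM, where fewer genes are tested. Protein-coding transcripts alone gave 507 lower. That choice and the removal of X chromosome genes were added after seeing the data. Of 350 recomputed values of single members, 273 stayed within their counting interval, 77 did not, 7 crossed the 2-fold rule and 0 changed sign. The filters and the removal of X chromosome genes leave a gene's log2 ratio unchanged, so part of the 273 was fixed in advance.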
